A study of Mus musculus with 22 samples.

Results

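The clustered protocadherin genes of the mouse were described here through the 60 histone mark peaks that share at least 1 bp with a window of 970 kb on mouse chromosome 18 (build mm9). The window begins 196.8 kb before the first of these peaks, which starts at 37246797, and ends 37.6 kb after the last, which ends at 37982423. These 60 peaks came from 10 peak lists that hold 110069 peaks in all. The window was chosen by position, because it holds the alpha (Pcdha), beta (Pcdhb) and gamma (Pcdhg) clusters. Earlier results of these data were known when it was chosen. H3K4me3 accounted for 37 of the peaks and H3K27me3 for 23, and all of them lay wholly inside the window.

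The series mapped both marks by chromatin immunoprecipitation and sequencing in purified cells of the developing neocortex of C57BL/6JOlaHsd mice. Neuroepithelial cells (NEC) were taken from embryos at stage E9.5. The other cells were taken at E14.5. They were apical radial glia, either proliferative (aRG-P) or neurogenic (aRG-N), radial glia of the basal type (bRG), and neurons (N). Each of the 5 cell types had 2 samples per mark, called technical replicates in the labels of the aRG-N H3K27me3 pair, and 2 Input samples pooled both ages. Each list was called on the combined samples of 1 cell type and mark, so replicate error is not known for any value and differences between lists are described without a test. Age and cell type cannot be told apart for NEC. How the cells were purified is not given in the sources used here, and the lists hold no expression values against which the cell type labels could be checked.

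Clustered protocadherins are adhesion molecules of the cadherin family that sit on the surface of neurons. In the alpha and gamma clusters each variable exon has a promoter of its own and is spliced to exons shared by the whole cluster, while each beta gene is a single coding exon. A neuron uses only some of these promoters, and the combination gives the cell a surface identity by which its branches recognise and avoid each other. The C-type members at the end of the alpha and gamma clusters are known for more uniform use among cells. H3K4me3 marks active and poised promoters, and H3K27me3 is the mark of Polycomb repressive complexes. In the GRCm38.p6 gene table the order is 14 protein-coding Pcdha genes ending with Pcdhac2, then 22 Pcdhb genes, then Slc25a2 and Taf7, then 21 Pcdhg genes ending with Pcdhgc5, followed by Diaph1. That table is of another build than the peak lists, so no peak was assigned to a gene and every site is given by its mm9 position, counted from 1, and its distance from the start of the window. No sequence is printed for these positions.

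H3K27me3 covered a far greater length of the window in NEC than in the 4 cell types of E14.5. NEC had 13 H3K27me3 peaks that covered 93.1 kb, or 9.60% of the window. In aRG-N 8 peaks covered 8.78 kb. In aRG-P a single peak covered 0.465 kb, in N a single peak covered 0.612 kb, and bRG had none. With lists cut to equal length, NEC had 6 peaks over 71.7 kb, aRG-N 1 peak over 1.62 kb and the others 0. The other mark was spread more evenly over the cell types. H3K4me3 covered 7.895 kb with 9 peaks in NEC and 5.67 kb with 4 peaks in aRG-P. It covered 6.65 kb with 9 peaks in aRG-N, 6.07 kb with 7 peaks in bRG and 5.92 kb with 8 peaks in N.

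**Figure D1:**
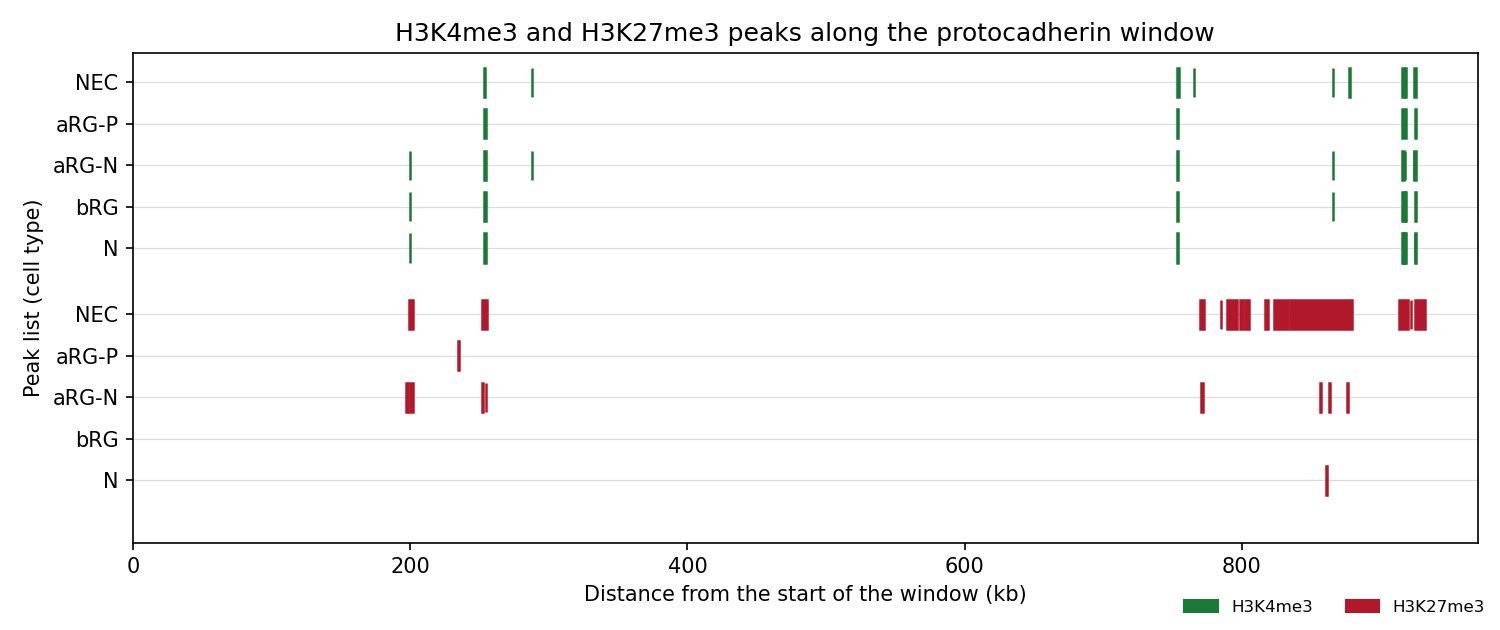
Position of every peak of the window, as distance from its start in kb, for the 5 H3K4me3 lists (green, upper rows) and the 5 H3K27me3 lists (red, lower rows). Peaks are drawn to scale with an outline that makes the narrow ones visible; both marks are absent from all lists between 288.2 and 753.2 kb, and the broad H3K27me3 of NEC lies to the right of that stretch.

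Other stretches of the genome show how usual these lengths are. The autosomes were divided into 2534 further windows of the same length, 970 kb. The NEC H3K27me3 list covered more than 93.1 kb in 6 of them (0.237%), and its median over them was 2.95 kb. The aRG-N list covered more than 8.78 kb in 28.1% of the windows, with a median of 2.11 kb. By number, its 8 peaks were exceeded in 6.67% of the windows, where the median was 1, so aRG-N had many but short peaks for its list. The aRG-P list covered more than 0.465 kb in 52.5% and the N list more than 0.612 kb in 58.6%. In the bRG list 50.7% of the windows had no H3K27me3 peak, so an empty window was about as common as a marked one there. For H3K4me3, between 29.8% (aRG-P) and 35.95% (NEC) of the windows were covered over a greater length than the protocadherin window. These shares describe the lists and are not a test. The windows were not matched for genes, while the lists hold only calls near transcripts. In NEC 34.5% of the windows had no H3K27me3 peak and 19.3% no H3K4me3 peak.

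The equal windows on both sides of the clusters carried H3K27me3 in every cell type. On the left NEC had 36.2 kb, aRG-N 27.4 kb, N 23.8 kb, aRG-P 17.96 kb and bRG 15.0 kb. On the right the lengths were 23.6 kb in aRG-N, 15.8 kb in N, 14.6 kb in aRG-P, 10.2 kb in NEC and 9.70 kb in bRG. The NEC list was therefore the highest list inside the window and on the left, and the second lowest on the right. H3K4me3 peaks numbered 16 to 19 on the left and 9 to 12 on the right, against 4 to 9 inside.

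**Figure D2:**
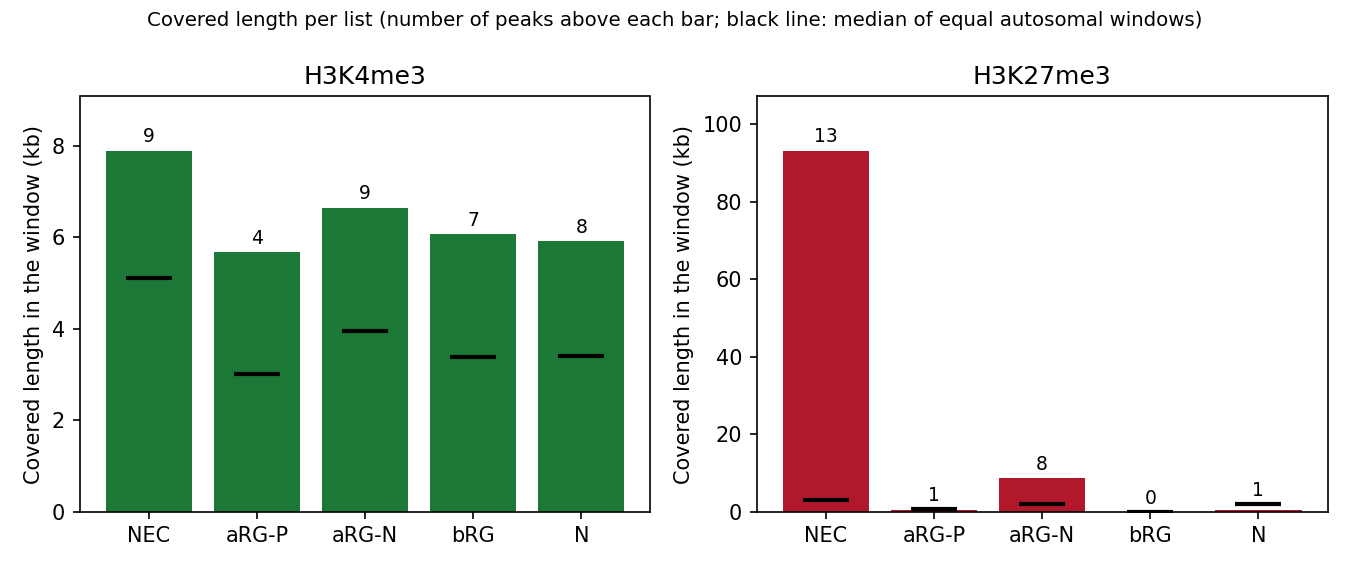
Length of the window covered by peaks (kb, axis from 0) in each cell type, H3K4me3 on the left and H3K27me3 on the right, with the number of peaks above each bar and a black line at the median of the 2534 equal autosomal windows. H3K27me3 covered 93.1 kb in NEC and at most 8.78 kb in any list of E14.5, while H3K4me3 covered between 5.67 and 7.895 kb in all 5.

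The long NEC H3K27me3 of the window was almost wholly missing from the lists of E14.5. Of its 93.1 kb, 6.83 kb (7.33%) was also covered in aRG-N and 0.612 kb (0.657%) in N, and no base was covered in aRG-P or bRG. Over all autosomes the NEC H3K27me3 bases were far more often shared. The share was 66.3% for aRG-N, 63.4% for N, 54.45% for aRG-P and 47.45% for bRG. Among the 61 other autosomal windows with at least 50 kb of NEC H3K27me3, a limit set after the values were seen, the lowest share was 8.86% for aRG-N, 9.28% for N, 1.69% for aRG-P and 0.709% for bRG. The protocadherin window thus lay below all 61 in each of the 4 lists.

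Counted by peaks, all 13 NEC H3K27me3 peaks lacked an overlapping aRG-P peak, against 66.7% over the whole NEC list and 50.4% of its autosomal peaks. The single aRG-P peak had no counterpart in the lists of NEC (34.9% of the aRG-P list), aRG-N (21.1%) or bRG (45.7%). All 8 aRG-N peaks were absent in aRG-P (46.6% of the aRG-N list), in bRG (58.5%) and in N (40.5%). The single N peak was absent in aRG-N (26.9% of the N list). bRG had no peak to compare, and 16.7% of its whole list lacked an aRG-P peak and 9.35% an aRG-N peak.

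When peaks of the 5 lists that shared at least 1 bp were joined, 15 H3K27me3 regions resulted. None had a peak in all 5 lists, against 16.4% of the joined H3K27me3 regions of the genome, and 11 were found in 1 list, against 59.5%. On the autosomes alone these shares were 22.4% and 49.7%. Of the 11 in the window, 9 were found in NEC alone, 1 in aRG-N and 1 in aRG-P. Over the genome 4872 of the 8153 regions in 1 list were in NEC alone, and on the autosomes 1828 of 4887. The peak names of the aRG-P list say that a set was excluded, and those of the N list that reads were extended. Without those 2 lists the count was 14 regions, of which 10 were in 1 list.

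The regions at least 5 kb long were all NEC peaks. The longest ran from 37884502 to 37929188, 834.5 kb from the start of the window, and measured 44.7 kb. Only 10 of the 9460 NEC H3K27me3 peaks were wider. Inside it aRG-N had 3 short peaks that covered 4.62% of it. They lay from 37906618 to 37907112, from 37912759 to 37913480 and from 37925931 to 37926778. The N peak, from 37910764 to 37911375, also lay inside it and covered 1.37%. In aRG-P and bRG the whole 44.7 kb was free of H3K27me3 peaks.

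To its left NEC had further H3K27me3 peaks that no other list shared. The next was 10.3 kb long, from 37872861 to 37883147, and ended 1354 bp before the longest one. Another of 7.30 kb ran from 37839416 to 37846717. Between and beside them lay shorter NEC peaks of 479 bp, 2214 bp, 2704 bp and 1851 bp, which began 784.7, 798.9, 802.5 and 817.0 kb from the start. The leftmost peak of this group, from 37820156 to 37822355, was shared with aRG-N, whose peak of 1619 bp ran from 37820314 to 37821932. Towards the end of the window NEC alone had 6556 bp from 37963503 to 37970058, 292 bp from 37971931 to 37972222 and 7297 bp from 37975127 to 37982423. Besides its 2 peaks in the left part, at 199.1 and 251.6 kb, the NEC mark thus lay between 770.2 and 932.4 kb from the start. Its broadest peak stood in the middle of that span, with an interval of 34.3 kb free of listed peaks before the last group.

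The H3K27me3 scores of NEC in this stretch ran from the lower to the upper part of the list. The score given in the first value column stood at percentile 88.7 of the NEC list for the longest peak and at 83.7 for the last one. It stood between 24.6 and 65.8 for the other 9 peaks to the right of 770 kb. For the NEC peaks at 199.1 and 251.6 kb it stood at 73.9 and 83.9. Here a percentile is the share of the other peaks of the same list with a lower value, with ties split evenly between lower and higher. The aRG-N scores stood at percentiles 4.06 to 51.5, that of aRG-P at 23.95 and that of N at 36.0.

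**Figure D3:**
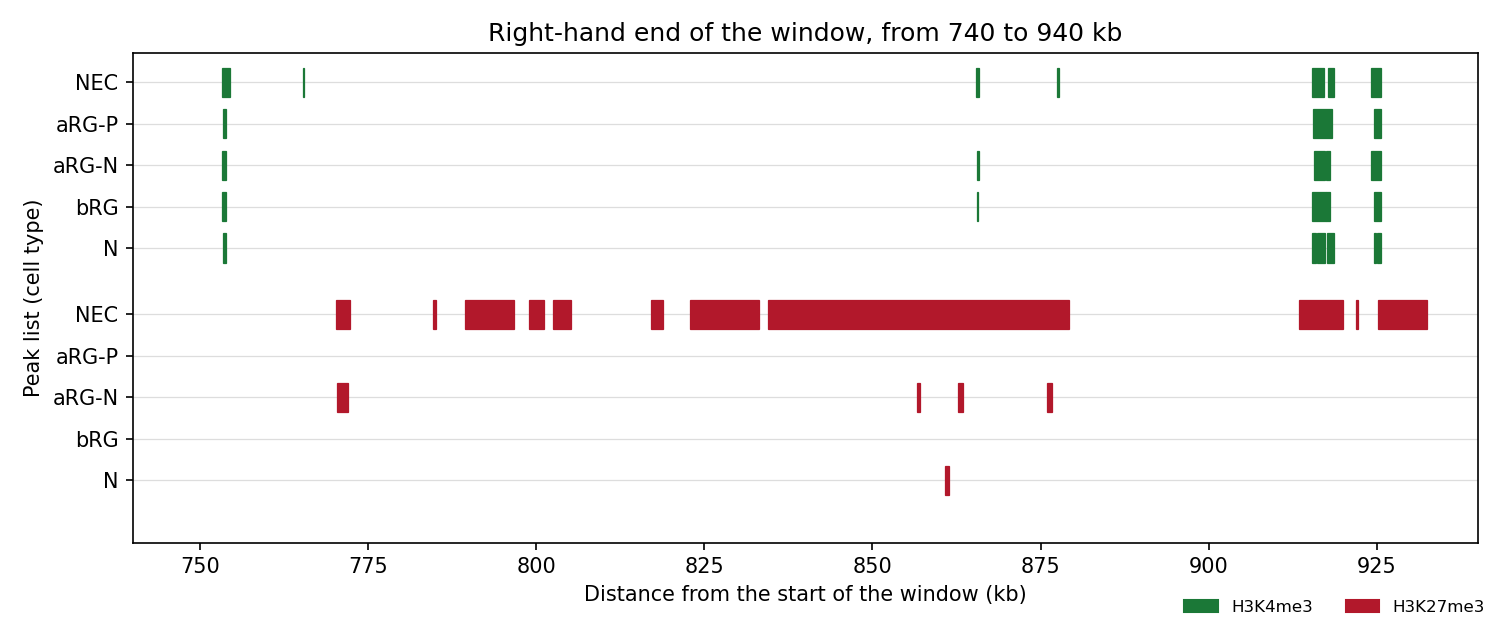
Peaks of the right-hand end, by distance from the start of the window (kb), for the H3K4me3 lists (green) and the H3K27me3 lists (red), with widths to scale. The NEC H3K27me3 peaks shown run from 770.2 to 932.4 kb, aRG-N has 4 short peaks within that span, N has 1, and aRG-P and bRG have none.

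H3K4me3 was found at 9 joined regions of the window, and 4 of them (at 252.9, 753.2, 915.3 and 924.1 kb) had a peak in all 5 lists. Over the genome 67.9% of the joined H3K4me3 regions had a peak in all 5. The remaining 5 regions were in 3 lists (at 199.7 and 865.5 kb), in 2 lists (at 287.8 kb) or in NEC alone (at 765.2 and 877.5 kb). Of the genome's joined regions 18.5% (3193) were in 1 list, and 2722 of those were in NEC alone. The fold enrichment over background is the authors' peak caller's value and is not on a shared scale between lists, so each is given with its percentile.

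The region at 753.2 kb, from 37803170 to 37804378, held the H3K4me3 peak of highest fold enrichment that NEC, aRG-P and N had in the window, and shared the first place in bRG. Its fold enrichment was 34.5 for NEC (percentile 86.6), 14.1 for aRG-P (88.7), 15.9 for aRG-N (73.8), 11.4 for bRG (75.65) and 10.45 for N (76.6). It ranked above the middle of every list. The peak was 1209 bp wide in NEC and 444 to 643 bp wide at E14.5, and its summits fell within 92 bp of each other. It overlapped no H3K27me3 peak in any list.

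The region at 915.3 kb, from 37965336 to 37968668, was the widest H3K4me3 site. The highest fold enrichment there was 19.7 for NEC (percentile 52.3), 10.7 for aRG-P (64.2), 17.1 for aRG-N (81.0), 11.4 for bRG (75.65) and 9.36 for N (63.6). It consisted of 1 peak of 2798 bp in aRG-P, which only 92 of 15982 aRG-P peaks exceeded in width. It was split into 2 peaks in NEC, aRG-N and bRG and into 3 in N. Between 2223 bp (aRG-N) and 2907 bp (N) of it were covered. An H3K27me3 peak spanned it in NEC, and the 4 other cell types had none there.

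The region at 924.1 kb, from 37974088 to 37975716, was the last site before the end. Fold enrichment was 9.07 for NEC (percentile 23.7), 7.28 for aRG-P (34.4), 7.61 for aRG-N (26.5), 6.89 for bRG (33.7) and 9.08 for N (60.2). It ranked in the lower part of the 4 progenitor lists and above the middle of the N list. The N and aRG-N lists each split it into 2 peaks, and the summits of the highest peaks lay up to 737 bp apart. The NEC H3K27me3 peak that began at 37975127 overlapped 550 bp (36.3%) of the NEC H3K4me3 peak.

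The region at 252.9 kb, from 37302912 to 37304480, was the broad site of the left part. Fold enrichment was 20.2 for NEC (percentile 53.6), 11.1 for aRG-P (67.7), 13.95 for aRG-N (62.3), 9.05 for bRG (54.1) and 9.08 for N (60.2). Its width was alike in the 5 lists, at 1413 bp for NEC, 1355 bp for aRG-P, 1396 bp for aRG-N, 1444 bp for bRG and 1443 bp for N. These widths stood at percentiles 70.9 to 90.0 of their lists. All values lay somewhat above the middle of the lists.

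**Figure D4:**
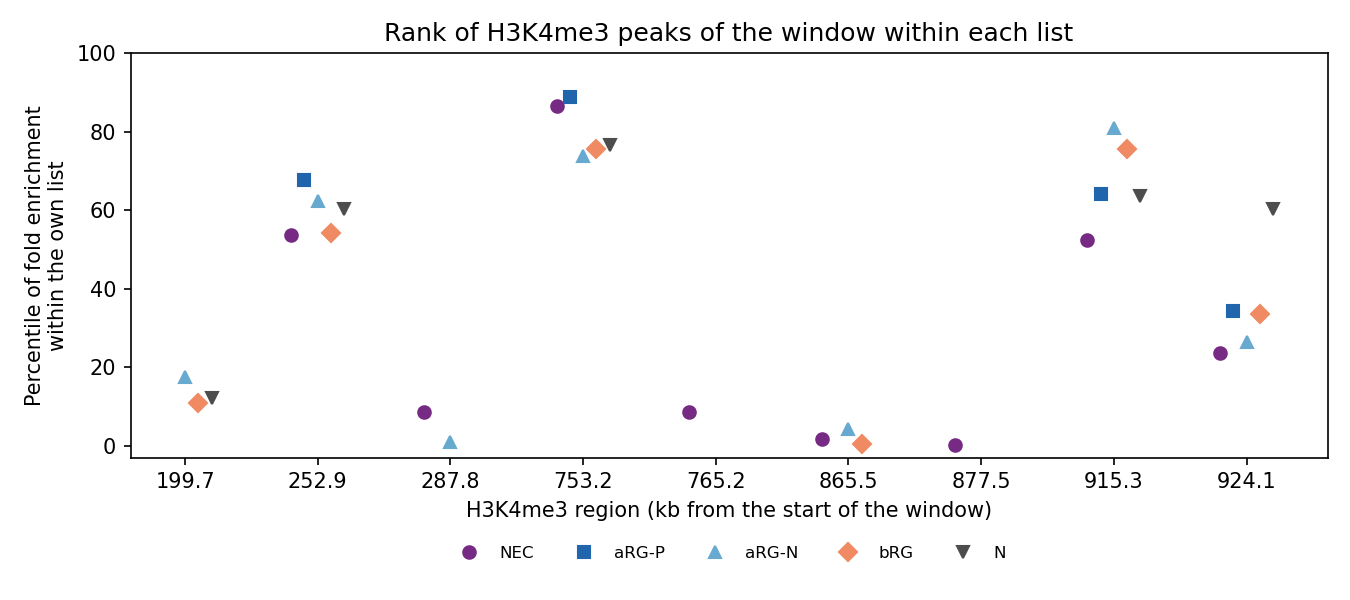
Percentile of the highest fold enrichment of each joined H3K4me3 region within its own list, with 1 symbol per cell type. The vertical axis gives the percent of the other peaks of that list with a lower value, with ties split evenly. The horizontal axis gives the distance of the region from the start of the window. The 4 regions found in all lists stand at percentiles from 23.7 to 88.7, and the 5 others at 17.4 or lower.

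The 5 regions missing from some lists were narrow and weak. At 199.7 kb H3K4me3 was absent in NEC and aRG-P. It measured 356 bp in aRG-N (fold enrichment 6.03, percentile 17.4), 344 bp in bRG (4.67, percentile 11.0) and 224 bp in N (4.97, percentile 12.2). At 287.8 kb it measured 267 bp in NEC (5.42, percentile 8.68) and 229 bp in aRG-N (3.52, percentile 1.09). At 865.5 kb, within the long NEC H3K27me3 peak, it measured 345 bp in NEC (4.06, percentile 1.71), 252 bp in aRG-N (4.23, percentile 4.38) and 212 bp in bRG (3.27, percentile 0.593). The peaks of NEC alone measured 194 bp at 765.2 kb (5.42) and 260 bp at 877.5 kb (3.28, percentile 0.224). All of these peaks stood at percentile 17.4 or lower. The read depth behind the lists is unknown, and its part in the absence of such peaks from a list was not tested.

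Pairs of lists differed only at such sites and at 1 short peak of the last region. Of the 9 NEC H3K4me3 peaks 4 had no aRG-P peak (25.2% over the NEC list), and none of the 4 aRG-P peaks was missing in NEC (2.62%). The count of 4 fell to 2 among peaks with a −log10 q of at least 5 and to 0 with lists cut to equal length. Of the 9 aRG-N peaks 4 had none in aRG-P (11.7%), 2 none in bRG (10.1%) and 3 none in N (10.8%). The aRG-N peaks concerned were those at 199.7, 287.8 and 865.5 kb and a peak of 328 bp from 37974088 to 37974415. With a −log10 q of at least 5 these aRG-N counts were 1, 0 and 0, and with lists cut to equal length they were 4, 3 and 3. In bRG 2 of 7 peaks had none in aRG-P (8.27%), namely those at 199.7 and 865.5 kb, and 1 under either of those alternatives. In the other directions the count was 0, for aRG-P against aRG-N (3.54%) and bRG (7.03%), bRG against aRG-N (2.56%) and N against aRG-N (5.46%).

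Both marks met most often in NEC. Of its 9 H3K4me3 peaks 6 overlapped an NEC H3K27me3 peak (66.7%, exact Clopper-Pearson 95% interval 29.9 to 92.5%), against 25.9% over its whole list. With lists cut to equal length 2 of 4 did so, with a −log10 q of at least 5 it was 4 of 7, and with an overlap of 50% 5 of 9. The whole-list share was not computed under these alternatives. In aRG-N 1 of 9 H3K4me3 peaks overlapped H3K27me3 (11.1%, interval 0.281 to 48.25%), against 14.4%. None did so of 4 in aRG-P (8.9% over the list), of 7 in bRG (8.41%) and of 8 in N (12.7%). The intervals of these zeros reach up to 60.2%, 41.0% and 36.9%, and all intervals cover counting error only. They also treat neighbouring peaks as independent, though the 6 NEC peaks met only 4 H3K27me3 peaks. The NEC interval therefore does not show an excess over the whole list. Counted from the other side, 4 of 13 H3K27me3 peaks overlapped H3K4me3 in NEC (40.5% over the list) and 1 of 8 in aRG-N (27.8%). The single peaks of aRG-P (23.4%) and N (30.5%) did not, and bRG had none to count (32%). Overlapping peaks of separate lists do not show that both marks lay on the same molecule or in the same cells.

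In NEC H3K27me3 covered 5 of these 6 H3K4me3 peaks in full, at 252.9, 865.5 and 877.5 kb and both peaks at 915.3 kb. The arrangement at the left-hand sites differed between NEC and aRG-N. At 252.9 kb the NEC H3K27me3 peak from 37301597 to 37305708 ran across the whole H3K4me3 peak. In aRG-N H3K27me3 was split into a peak from 37301482 to 37302590 and a peak from 37304419 to 37304912. They ended 406 bp before and began 26 bp after the aRG-N H3K4me3 peak, so that the marks lay side by side. At 199.7 kb the NEC H3K27me3 peak ran from 37249088 to 37252219 with no listed H3K4me3 peak in NEC. In aRG-N a peak from 37246797 to 37248635, found in no other list, and one from 37250091 to 37251747 lay on both sides of an H3K4me3 peak, which the right-hand one overlapped by 15 bp. The aRG-N arrangement depended on the processing. With lists cut to equal length aRG-N kept only its H3K27me3 peak at 770.3 kb. With peaks joined across 3000 bp, 2 aRG-N H3K4me3 peaks overlapped H3K27me3 instead of 1. In bRG and N H3K4me3 was present at both sites with no listed H3K27me3 peak, and in aRG-P at 252.9 kb only. The aRG-P H3K27me3 peak of the window lay apart from all H3K4me3, from 37284637 to 37285101.

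**Figure D5:**
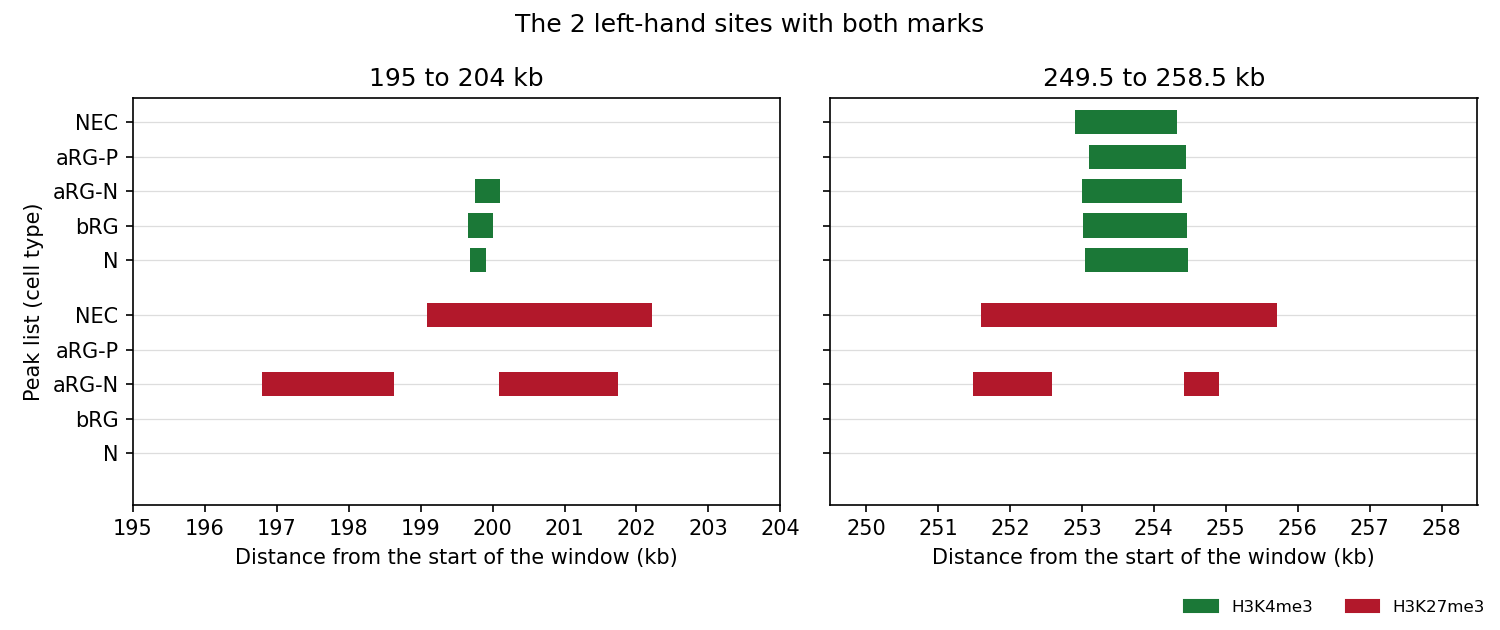
Peaks at the 2 left-hand sites with both marks, each over 9 kb and to scale, by distance from the start of the window (kb), H3K4me3 in green and H3K27me3 in red. In NEC a single H3K27me3 peak spans each site, and in aRG-N H3K27me3 peaks stand on both sides of the H3K4me3 peak.

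Most of the window held no listed peak of either mark in any cell type. Peaks of all 10 lists together covered 98.4 kb, or 10.1% of it. The longest stretch free of peaks ran from 37338190 to 37803169 and measured 465.0 kb. On the autosomes 4.95% of the 21170 intervals between neighbouring peaks of any list were at least as long, and their median was 26.95 kb. The first 196.8 kb of the window were also free of peaks, as part of an interval of 284.3 kb that began outside it. H3K4me3 summits were accordingly uneven in spacing, from 0.364 kb to 500.3 kb between neighbours within a list. A count of 9 H3K4me3 regions stands beside 57 protein-coding Pcdha, Pcdhb and Pcdhg genes in the table of the other build. That table also places Slc25a2 and Taf7 between the beta and gamma clusters. As no peak was assigned to a gene, these counts give no share of marked protocadherin promoters.

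The lists hold only calls near transcripts, so calls that were left out had to be considered. Peak numbers rose with position in all 10 lists, and a missing number shows a call that was not listed. The bRG H3K27me3 peaks on both sides of the window had consecutive numbers, so no call had been left out there. Counting every missing number between the flanking peaks, the window could hold at most 2 H3K27me3 calls in aRG-P, 5 in N, 10 in aRG-N and 18 in NEC, which lists 13. The longest empty stretch could hold at most 4 unlisted H3K27me3 calls in N, none in the bRG H3K27me3 and aRG-P H3K4me3 lists, and 1 in each of the other 7.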

How the data were processed

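Both marks were measured by chromatin immunoprecipitation and sequencing with a kit for small cell numbers, per the labels' protocols. Build mm9 and the tools MACS2, Bowtie 1.0.0 and bedtools are given in the submitters' processing notes. The deposited files were 10 peak lists, each called on combined samples, per the peak names, and kept near transcripts, per the file headers. Columns used for H3K4me3 were the authors' fold enrichment over background, the −log10 p and −log10 q of their caller, and the summit. The H3K27me3 values deposited by the authors are called a score, since column 9 exceeded column 8 in every peak and their meaning was not settled. Read depth is unknown, and Input files were not analysed here.

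Peaks counted as overlapping when they shared 1 bp or more. The software was scipy 1.17.1, pandas 2.3.3, numpy 2.4.6 and, for plots, matplotlib 3.10.9, under Python 3.11.15. Overlap calls were tested on the aRG-N lists with known peaks removed and planted ones added. They were also compared with a direct check of the aRG-N and NEC peaks on the chromosome of the window. Named regions were H3K27me3 regions of at least 5 kb and all H3K4me3 regions, since fewer than 10 existed. All other H3K27me3 peaks were named after their values were seen. The window, comparisons and alternatives were chosen with earlier results of these data known. The alternatives tried were H3K4me3 peaks limited to a −log10 q from 5 upwards, lists cut to equal length (by highest −log10 p or first score), peaks joined across 3000 bp, an overlap of 50%, no peak within 5000 bp and only peaks wholly inside. A common lowest H3K27me3 score of 15.8 and leaving out the aRG-P and N lists were added after seeing the data.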

Additional observations from a re-analysis of the deposited data

How the results depend on the processing

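Of 224 values recomputed, 182 stayed within 1.5 times the reported value. The 20 values for peaks wholly inside could not change, because all peaks of the window lie wholly inside it. Nor could the bRG H3K27me3 counts and lengths, which started from 0 peaks. With lists cut to equal length (3476 H3K27me3 peaks) NEC kept 6 H3K27me3 peaks over 71.7 kb, aRG-N 1 peak over 1.62 kb, and aRG-P and N 0 peaks (0 kb). Joined H3K27me3 regions then numbered 7, all 7 in 1 list, NEC peaks absent in aRG-P 6, and aRG-N peaks absent in aRG-P, bRG or N 1 each. The counts for aRG-P against NEC, aRG-N and bRG and for N against aRG-N were then 0. For H3K4me3, NEC then had 4 peaks with a median fold enrichment of 19.95, 0 of them absent in aRG-P, and bRG had 1 peak absent in aRG-P. NEC then had 2 H3K4me3 peaks with H3K27me3 and aRG-N 0. With peaks joined across 3000 bp, NEC had 8 H3K27me3 peaks, all 8 absent in aRG-P, N had 5 H3K4me3 peaks, and H3K27me3 regions numbered 9, with 5 in 1 list. aRG-N then had 2 H3K4me3 peaks with H3K27me3 and 1 absent in bRG. With a −log10 q of at least 5, H3K4me3 peaks absent in aRG-P numbered 2 for NEC, 1 for aRG-N and 1 for bRG, and aRG-N peaks absent in bRG or N 0, while the aRG-N median fold enrichment was 10.8. With an overlap of 50%, 4 H3K4me3 regions were in 1 list and 0 aRG-N H3K4me3 peaks had H3K27me3. With no peak allowed within 5000 bp, 1 aRG-N H3K4me3 peak was absent in bRG and 0 N H3K27me3 peaks were absent in aRG-N. With a common lowest score aRG-P had 0 H3K27me3 peaks (0 kb). Each change follows from fewer or longer peaks or a stricter rule. NEC had the greatest H3K27me3 length of the 5 lists under each of the 4 alternatives run on length (71.7 to 102.8 kb). Only the cut to equal length (71.7 kb) and the common lowest score (89.9 kb) could shorten the NEC length. Joining peaks could only lengthen it. No paired analysis was possible because each list pools the samples of its group and no result comes from a test. For the same reason no replicate was left out.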
